A study of Mus musculus with 2 samples.

Results

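The cells described here are 341 barcodes with high complement C1q and Cx3cr1 transcripts from a mouse brain tumour, a profile that marks microglia, the resident macrophages of the brain. They were chosen from raw counts of unique molecular identifiers (UMIs, each standing for 1 captured RNA molecule). A cell needed at least 200 genes, at most 15% mitochondrial UMIs, Nras under 1000 counts per 1000000 UMIs (CPM), at least 1 Malat1 UMI, at least 20 UMIs of C1qa, C1qb and C1qc together, and at least 2 UMIs of Cx3cr1. Of 4970 barcodes, 3186 passed the filters on genes and mitochondrial UMIs, and the 341 cells were 10.7% of those, 184 of 1740 in replicate 1 and 157 of 1446 in replicate 2. The comparison class passed the same gate but had 0 UMIs of Cx3cr1 and at least 2 of Vim, and it held only 16 cells, 8 in each library. The text calls the classes Cx3cr1-positive cells and Vim-positive cells.

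Both droplet libraries came from a brain tumour of C57BL/6 mice with mutant IDH1 (mIDH1), a metabolic enzyme altered in some gliomas, at the symptomatic stage. The labels name these samples tumour cells, give no age, sort or other treatment, and put them in 1 group, with no untreated tissue, so every comparison is between classes of cells in the same libraries. They do not say that replicates 1 and 2 are separate animals, and p-values then measure only the spread between these libraries, which may be technical. The libraries shared 10 barcode sequences, of which 0 were a Cx3cr1-positive cell in both.

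Microglia enter the brain before birth and renew themselves there. In healthy tissue they hold a homeostatic programme of surface receptors and lysosomal enzymes that depends on signals through Csf1r and transforming growth factor beta. In disease they can turn down parts of it and raise lipid-handling and lysosomal genes, among them Apoe and Trem2. Macrophages that arrive in a tumour as monocytes share C1q, Apoe and many phagocyte receptors with microglia but lack most of the homeostatic genes.

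The genes that chose the cells are given as a description. Cx3cr1 (chromosome 9, 119901616 to 120069879, minus strand, GRCm38), the receptor for the neuronal chemokine fractalkine, was at 1232 CPM in replicate 1 and 1420.4 in replicate 2. The complement genes C1qa, C1qb and C1qc, neighbours on chromosome 4, were at 13737 ± 34.8, 10597 ± 60.8 and 8202 ± 90.4 CPM (mean ± SD, n = 2 libraries). Vim, which encodes a cytoskeletal filament and was not used to choose these cells, was at 271 and 309 CPM against 1631 and 1558 in the Vim-positive cells, which were chosen by it. Few cells lay near the limits: 9 of the 341 had 20 to 39 C1q UMIs and 19 had 2 or 3 Cx3cr1 UMIs. Just outside, 4 cells had 10 to 19 C1q UMIs with Cx3cr1 in place, 4 cells in the C1q gate had 1 UMI of Cx3cr1, and 21 had 0. The 9 cells just inside the C1q limit had a median summed level of 20 homeostatic genes of 2987 CPM, against 4233 CPM in the 4 cells just outside it and 20234 in all 341.

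The Cx3cr1-positive cells held a median of 10617.5 UMIs and 2959.5 genes in replicate 1 and 12056 UMIs and 3122 genes in replicate 2, over a range of 1696 to 50798 UMIs per cell. Their summed depth was 2203146 and 2205733 UMIs, against 70506 and 118723 UMIs for the Vim-positive cells, so levels in the latter are far less precise. The share of mitochondrial UMIs per cell had a median of 3.83% and 3.94%, against 1.25% and 1.27% in the Vim-positive cells. Its part in the differences below was not tested.

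The microglia label was checked against markers the gate did not use. All 20 homeostatic microglia genes of the list were detected, and their sum was 19218 and 19921 CPM. Tmem119, a membrane protein of microglia, had a UMI in 300 of 341 cells (88.0%). The purinergic receptor gene P2ry12, which senses ATP and ADP from injured cells, had one in 270 (79.2%), and the lectin gene Siglech in 195 (57.2%). Sall1, which encodes a transcription factor that keeps microglial identity, had one in 191 (56.0%) at 73.5 and 86.1 CPM. Some markers of border-associated macrophages, which line the meninges and vessels, were near the detection limit. Cd163 and Lyve1 had 0 UMIs in the 341 cells, which allows a share of up to 0.880% of cells with a UMI. Mrc1, Pf4 and Folr2 were at 13.6, 13.2 and 12.9 CPM. The 10 border-associated genes summed to 230.1 and 151.4 CPM, against 439.7 and 497 in the Vim-positive cells. Most of the sum in the Cx3cr1-positive cells came from members not named here. Of the 341 cells, 25 held at least 3 of the 10 genes and 180 held none. These data did not go against the label.

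The 15 genes with the highest CPM outside mitochondrial and ribosomal genes took 19.5% and 19.4% of all UMIs. Apoe, a lipid carrier, led them at 50746 and 52705 CPM, followed by Tmsb4x, which encodes an actin-binding peptide (20974 ± 796), the ferritin gene Fth1 (15931 ± 672) and the nuclear RNA Malat1. The lysosomal proteases Ctss and Ctsd were at 10302 ± 123 and 7385 ± 118 CPM. The protease inhibitor gene Cst3 was at 7699 ± 84.7 and the membrane protein gene Itm2b at 7619 ± 173. Actb, Ftl1, Cd74, H2-D1 and the 3 C1q genes completed the set. The libraries differed little in these levels, Cd74 being among the less even (6341 and 5079 CPM). These are UMI levels not scaled by gene length, so genes are listed by how many molecules were captured.

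Of the genes compared with the Vim-positive cells, 1802 had enough counts to be tested, and 245 (13.6%) were called. A call needed a Benjamini-Hochberg adjusted p under 0.05 in edgeR's quasi-likelihood test on counts summed per library and class, and at least a 2-fold change. Higher in Cx3cr1-positive cells were 115 genes (6.38%) and lower were 130 (7.21%), and the median log2 change of all tested genes was -0.02. Each of the 245 had the same sign in both libraries. Statements below that libraries of the classes did not overlap describe the named genes. The share of all tested genes without overlap was not counted, so these statements add no support to a call. The tested genes are those abundant enough in these small sums, and a gene silent in the Vim-positive cells was tested only because it is abundant in the Cx3cr1-positive ones, so shares of tested genes are not shares of a list. The Vim-positive cells of replicate 2 also carried more neutrophil transcripts, a list sum of 2999 CPM against 582 in replicate 1 and 547 and 516 in the Cx3cr1-positive cells. With the 23 Cx3cr1-positive and 5 Vim-positive barcodes left out that held genes of another cell type (described at the end), 188 of 1169 tested genes were called.

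Most homeostatic genes were higher in the Cx3cr1-positive cells. Of 20 measured, 17 were tested and 16 were higher in Cx3cr1-positive cells, 0 were lower, and the median log2 change of the 17 was 4.38, or 3.63 with the 3 genes at 0 counts in the Vim-positive cells set at their lower bound. Tmem119 (chromosome 5, 113793729 to 113800516, minus strand) was at 475 and 473 CPM in the Cx3cr1-positive cells and had 0 counts in both libraries of the other class. That made it at least 29.9-fold higher, set against 3 counts over the class (edgeR adjusted p = 3.73e-05). Crybb1, a lens crystallin gene that microglia also transcribe, and Siglech had 0 counts there as well, the former at least 19.5-fold higher and the latter at least 8.05-fold higher. In all 3 genes each library of Cx3cr1-positive cells lay above each library without a count.

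P2ry12 was at 209.7 and 237 CPM against 28.4 and 0, a ratio of 21.1 over both libraries with a 95% counting interval of 5.83 to 175, since only 2 UMIs were counted in the Vim-positive cells (edgeR adjusted p = 0.00172). Gpr34, a lysophospholipid receptor gene, was at 211 and 235 CPM against 14.2 and 8.42, a ratio of 21.1 (5.82 to 174), and the transporter gene Slco2b1 at 197 and 205 against 0 and 8.42, a ratio of 38 (6.81 to 1504). The groups did not overlap for any of them. Sparc, a secreted matrix protein gene, was at 768 and 841 CPM against 28.4 and 0, also 2 UMIs, a ratio of 76.1 (21.1 to 629). Fcrls, an Fc receptor-like gene, was at 556 and 611 against 56.7 and 0, a log2 change of 4.92 ± 0.70 (SE), with 3.24 in replicate 1 alone and 7.89 in replicate 2 alone. Olfml3 was at 733 and 834 against 70.9 and 25.3, a log2 change of 4.38 ± 0.61 (3.32 and 4.91 in replicates 1 and 2 alone).

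Other homeostatic genes were present in both classes and differed in amount. Csf1r, the survival receptor of microglia and macrophages, was at 1271 and 1376 CPM against 312 and 438, a log2 change of 2.01 ± 0.36. Selplg, a selectin ligand gene, had the smallest change called in the list, 508 ± 11.3 against 251 ± 45.7 CPM and a log2 change of 1.22 ± 0.39 (edgeR adjusted p = 0.048), and it was not called at 40 C1q UMIs, with RLE factors or at a 10% mitochondrial limit. Bin1 and Tgfbr1 lost the call without the mixed barcodes (adjusted p = 0.089 and 0.0641), and Tgfbr1 had log2 changes of 2.25 and 1.13 in replicates 1 and 2 alone.

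**Figure D1:**
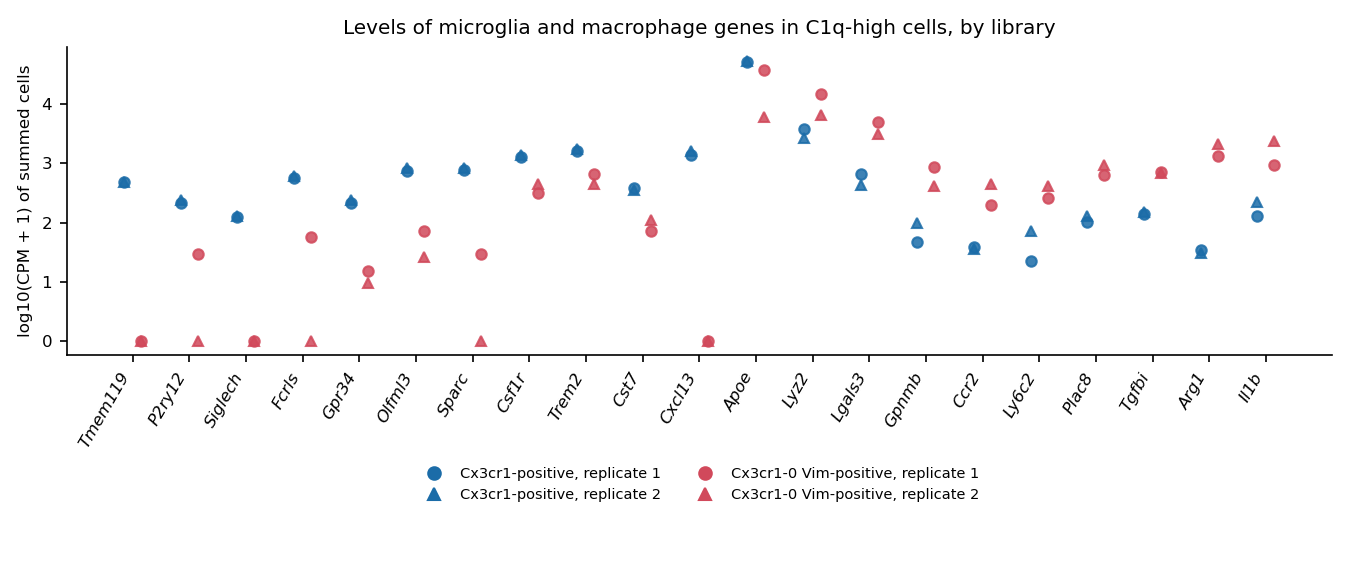
Levels of microglia and macrophage genes in summed cells of each class, as log10(CPM + 1), with circles for replicate 1 and triangles for replicate 2. The Cx3cr1-positive libraries nearly coincide for most genes, while Tmem119, Siglech and Cxcl13 lie at 0 in both libraries of Vim-positive cells and Arg1, Il1b and Lgals3 lie above the Cx3cr1-positive cells.

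Cell by cell, the sum of the 20 homeostatic genes had a median of 20234 CPM in Cx3cr1-positive cells (1858 to 116676) and 3452 CPM in Vim-positive cells (1145 to 6408). Of the 341 cells, 18 (5.28%) lay at or below the highest Vim-positive cell. With every cell thinned to 4000 UMIs, so that depth is equal, the medians were 77.5 and 87 homeostatic UMIs in 176 and 152 Cx3cr1-positive cells, against 14 and 17.5 in 7 and 8 Vim-positive cells. The distributions of these classes thus met only at their edges. Cells of the C1q gate outside both classes were less distinct. The 4 with 1 Cx3cr1 UMI had homeostatic sums of 5330 to 14629 CPM. All 21 with 0 Cx3cr1 UMIs, whatever their Vim, reached up to 31613 CPM. The classes were chosen on Cx3cr1, which belongs to the same programme, and on Vim, so this only describes the classes as chosen.

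**Figure D2:**
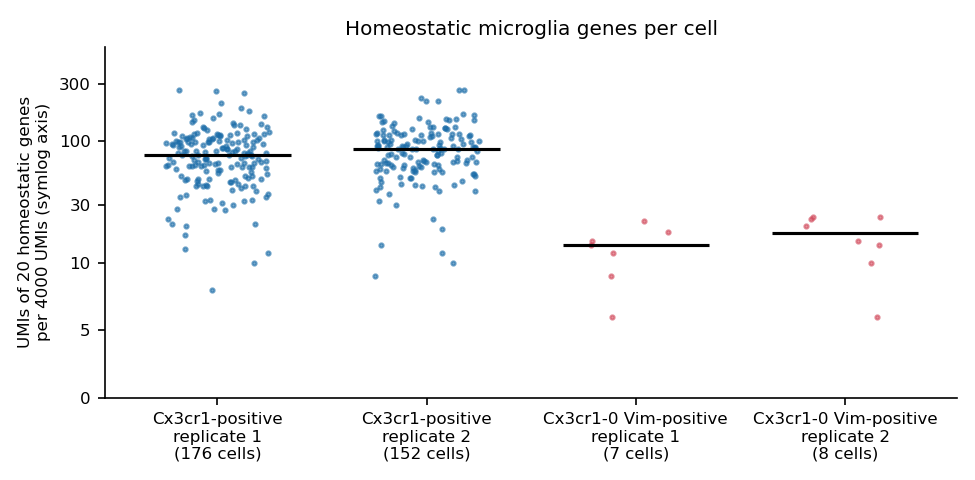
UMIs of 20 homeostatic microglia genes in each cell after thinning to 4000 UMIs, on an axis linear near 0 and logarithmic above; points are cells and bars are medians. The medians of the Cx3cr1-positive cells are 77.5 and 87 UMIs and those of the Vim-positive cells 14 and 17.5, with a small tail of Cx3cr1-positive cells reaching down to the latter.

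The disease-associated and lipid-handling list was split. Of 19 measured genes, 16 were tested, 5 were higher and 5 lower in Cx3cr1-positive cells, and the median log2 change was 0.26. Higher were Trem2, a lipid-sensing receptor of phagocytes (1608 and 1717 CPM against 652 and 438, log2 change 1.85 ± 0.39, edgeR adjusted p = 0.00365), the cystatin gene Cst7 (383 and 355 against 70.9 and 109), Ctsd, the tetraspanin gene Cd63 and the receptor kinase gene Axl. For Trem2 and Cst7 both libraries of one class lay above both of the other. Axl lost the call without the mixed barcodes (adjusted p = 0.0825) and with thinned cells (0.283), Cst7 at 4 Cx3cr1 UMIs (0.0542) and Cd63 at 40 C1q UMIs (0.0664). Trem2 had a UMI in 337 of 341 cells. Axl and Cd63 had log2 changes of 1.24 and 0.67 in replicate 1 alone and of 2.11 and 1.93 in replicate 2 alone.

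Lower in Cx3cr1-positive cells were Gpnmb, a glycoprotein gene of lipid-laden macrophages (46.8 and 97.9 CPM against 865 and 413), Lgals3, which encodes galectin-3 (653 and 422 against 4893 and 3099.7, log2 change -2.72 ± 0.43), and the growth factor gene Igf1 (35.4 and 19.9 against 269 and 118). Gpnmb missed the call in DESeq2 (adjusted p = 0.193) and had log2 changes of -4.14 and -2.05 in replicates 1 and 2 alone. Lyz2, which encodes lysozyme, and Fabp5, a fatty acid-binding protein gene, were lower in the test with all cells. Without the mixed barcodes neither was called, at log2 changes of -0.62 and -0.66 (edgeR adjusted p = 0.362 and 0.268). With all cells, Fabp5 had a log2 change of -3.26 in replicate 1 alone and -0.99 in replicate 2 alone. Apoe itself was not called (log2 change 1.78 ± 0.60, edgeR adjusted p = 0.0596). The Vim-positive libraries were far apart, at 37245 and 6031 CPM, and both lay below the Cx3cr1-positive ones. After thinning, a mixed Vim-positive barcode of replicate 1 held 650 Apoe UMIs, against 0 to 68 in that replicate's other thinned Vim-positive cells. The highest Vim-positive cell of replicate 2 held 79. The Apoe level of replicate 1 thus came largely from that mixed barcode. The Apoe test without the mixed barcodes is not reported here. Spp1, which encodes osteopontin, was at 2535 and 2269.5 CPM against 4949.9 and 1971, with overlap.

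Related lipid genes also went both ways. Of 15 measured, 10 were tested, 3 were higher and 2 lower. Apoc1, another apolipoprotein gene, was at 216 and 252 CPM against 14.2 and 8.42, a ratio of 22.1 (counting interval 6.12 to 183). Lpcat2, a phospholipid-remodelling enzyme gene, was at 799 and 807 CPM against 269 and 194. Plin2, which encodes a lipid droplet coat protein, was lower, at 193 and 170.0 against 2624 and 539 CPM (log2 change -2.73 ± 0.55, edgeR adjusted p = 0.00302), with -3.75 and -1.65 in replicates 1 and 2 alone. Outside the lists, Hilpda, a hypoxia-induced lipid droplet gene, was lower too, at 35.9 and 41.7 against 894 and 724 CPM (log2 change -4.21 ± 0.54).

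Lysosomal genes were high in both classes and none was called lower. All 20 of the list were tested, and 9 were called higher in Cx3cr1-positive cells, with a median log2 change of 1.02. Besides Cst3, Ctsd and Ctss they included Hexa, a lysosomal enzyme gene (857 ± 3.60 against 325 ± 162 CPM), the cathepsins Ctsl and Ctsh, the progranulin gene Grn and the legumain gene Lgmn. Ctsl was at 2188 and 2509 CPM against 780.1 and 960.2, without overlap. Lgmn had the weakest call (log2 change 1.15 ± 0.37, edgeR adjusted p = 0.049) and lost it without the mixed barcodes (0.055). Ctss and Grn lost theirs at 40 C1q UMIs (adjusted p = 0.0671 and 0.0679), and Ctsd at 4 Cx3cr1 UMIs (0.0595) and without the library block (0.106). Ctsd was called on unequal libraries, with a log2 change of 3.12 in replicate 2 alone and 0.64 in replicate 1 alone. For Hexa these were 2.01 and 0.96, and for Lgmn 1.43 and 0.57.

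The monocyte-derived macrophage list moved the opposite way. Of 20 measured genes, 13 were tested, 10 were lower in Cx3cr1-positive cells, 0 were higher, and the median log2 change was -2.01. Ccr2, the chemokine receptor that brings monocytes into tissue, was at 38.1 and 35.4 CPM against 199 and 446, a log2 change of -2.92 ± 0.43 (edgeR adjusted p = 0.000296). Ly6c2, a surface marker of inflammatory monocytes, was at 21.8 and 71.6 CPM against 255 and 404, and Plac8 at 99.4 and 129 against 638 and 918. None of these groups overlapped. The log2 change of Ccr2 was -2.30 and -3.56 in replicates 1 and 2 alone, that of Ly6c2 -3.40 and -2.45, and that of S100a10 -2.39 and -1.45. Among the Cx3cr1-positive cells, 23 (6.74%) had a Ccr2 UMI and 24 (7.04%) a Ly6c2 UMI. The S100 genes S100a10 and S100a11, the matrix genes Tgfbi and Emilin2, and Lgals1, Cd44 and Ifitm2 were the others called. Ifitm2 lost the call without the mixed barcodes (adjusted p = 0.0638), Cd44 and Emilin2 with thinned cells (0.309 and 0.0923) and Tgfbi in DESeq2 (0.457).

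The largest fall among listed genes was that of Arg1, which encodes arginase-1, an enzyme of suppressive myeloid cells. It was at 33.1 and 29.5 CPM in Cx3cr1-positive cells against 1319 and 2106 in Vim-positive ones, a log2 change of -5.51 ± 0.51 (edgeR adjusted p = 6.46e-06). Only 14 of 341 cells (4.11%) had an Arg1 UMI, against 12 of 16. After thinning, the Vim-positive cell with the most Arg1 was a mixed barcode in each library, with 32 UMIs in replicate 1 and 39 in replicate 2. The thinned Vim-positive cells that were not mixed held 0 to 6 and 0 to 16. The Vim-positive level thus came largely from mixed barcodes, though Arg1 kept its call in all 14 alternatives, the one without them included. Nos2, which encodes inducible nitric oxide synthase, was at 15 and 5.89 against 113 and 143 CPM, with log2 changes of -2.72 and -4.10 in replicates 1 and 2 alone. These were the 2 genes called among 10 tested of the suppression and checkpoint list of 18, while 13.6% of all tested genes were called. Vsir, a checkpoint gene, was at 269 and 278 against 170.2 and 211 CPM, and Cd274, which encodes PD-L1, at 124 and 101 against 85.1 and 379, both not called.

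**Figure D3:**
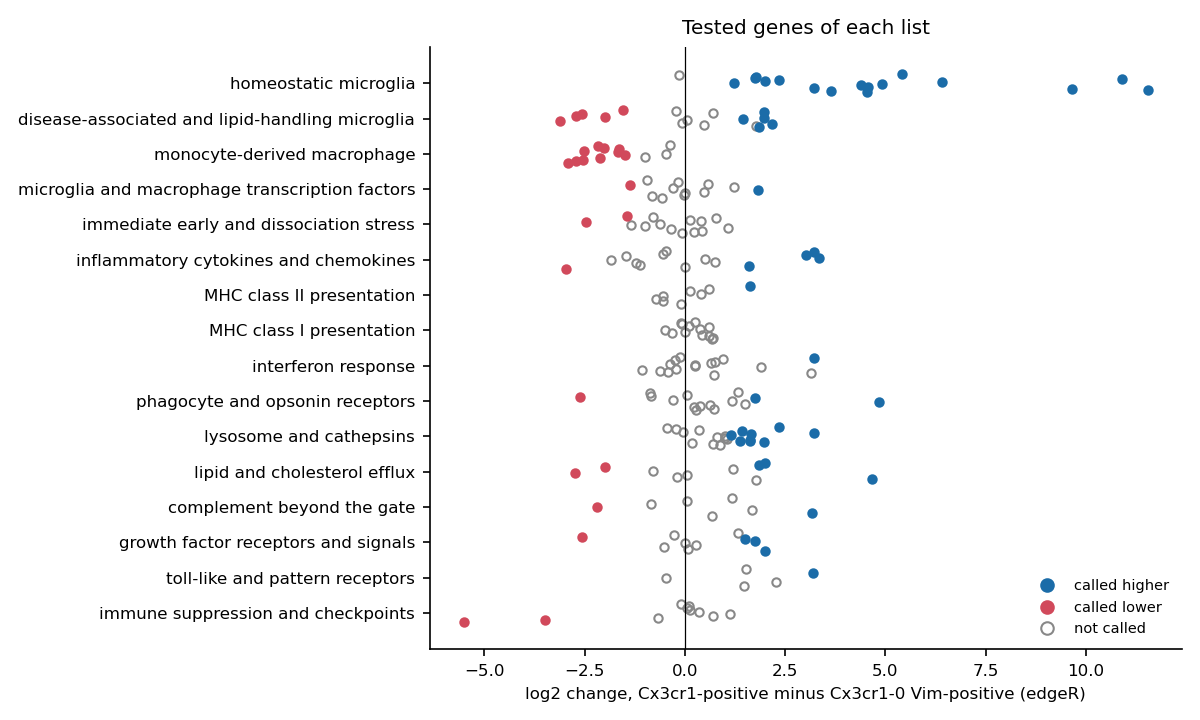
Log2 change, Cx3cr1-positive minus Vim-positive cells, of each tested gene in the 16 lists with at least 5 tested genes, from edgeR; filled points are called (blue higher, red lower) and open points are not. The homeostatic points reach furthest to the right, 10 monocyte-derived macrophage points are called to the left, and no MHC class I gene is called. Over all tested genes 13.6% were called. Positions of genes with 0 counts in the Vim-positive cells depend on the prior count.

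Of 16 transcription factors of the macrophage lineage, 12 were tested and 2 were called, a share near the 13.6% of all tested genes. Mef2c, a factor with a role in restraining microglial inflammation, was at 406 and 437 against 42.5 and 219 CPM (log2 change 1.83 ± 0.52, edgeR adjusted p = 0.0262), but not without the mixed barcodes (0.0711), and its log2 change was 3.18 in replicate 1 alone and 0.99 in replicate 2 alone. Cebpb, a factor of inflammatory myeloid cells, was lower, at 742 and 649.7 against 1829.6 and 2274 CPM, and was not called without the low-count filter (edgeR adjusted p = 0.18). Spi1, which encodes PU.1, was at 484 ± 49.8 against 833 ± 226 CPM and was not called, nor was Irf8. Among 17 immediate early and stress genes, which tissue dissociation can induce, 14 were tested, and Atf3 and Klf6 were called, both lower, again a share near that of all tested genes. Atf3 was at 89.4 and 83.9 CPM against 468 and 632, and Klf6 at 301 and 243 against 780.1 and 884. Klf6 lost its call with thinned cells, at 40 C1q UMIs and without the low-count filter (edgeR adjusted p = 0.173, 0.119 and 0.169).

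G-CSF, the growth factor in the study's title, is encoded by Csf3 and signals to myeloid cells through the receptor encoded by Csf3r. Csf3r was at 145 and 146 CPM in Cx3cr1-positive cells, with a UMI in 262 of 341 (76.8%, 95% interval 72.0 to 81.2), and at 128 and 143 CPM in Vim-positive cells. It was not called (log2 change 0.29 ± 0.42, edgeR adjusted p = 0.721). Csf3 had 0 counts in the 341 cells, which allows a share of up to 0.880% of cells with a UMI, and was at 8.25 ± 1.15 CPM in the 1981 cells with Nras of at least 1000 CPM. Receptors for granulocyte-macrophage colony-stimulating factor were also present, Csf2ra at 272 and 233 CPM against 184 and 371 and Csf2rb at 211 and 190.4 against 170.2 and 514, and neither was called. Of 18 growth factor genes, 10 were tested. Csf1r, Tgfbr1 and Tgfbr2 were higher and Igf1 was lower. Tgfbr2, a transforming growth factor beta receptor gene, was at 178 and 186 against 70.9 and 75.8 CPM, and 6 of 14 alternatives ended its call, with an adjusted p of 0.145 without the mixed barcodes.

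Of 24 inflammatory cytokine and chemokine genes, 14 were tested, 4 were higher in Cx3cr1-positive cells and 1 lower, and the median log2 change was -0.24. Ccl12, a ligand of Ccr2, was at 1197 and 1283 CPM against 99.3 and 286 (log2 change 3.02 ± 0.48, edgeR adjusted p = 0.000535), and Ccl2, another, at 733 and 763 against 156 and 413. In replicates 1 and 2 alone the log2 changes were 3.56 and 2.15 for Ccl12 and 2.21 and 0.88 for Ccl2. Ccl8 and Cxcl10 were also higher, Cxcl10 at 635 and 755 against 142 and 42.1 CPM (log2 changes of 2.14 and 4.08 in replicates 1 and 2 alone). Cxcl10 missed the call in DESeq2 and without the mixed barcodes (adjusted p = 0.0662 and 0.0505), and Ccl8, with 3 UMIs in the Vim-positive cells and a ratio of 9.73 (3.31 to 47.3), missed it with thinned cells (0.0678) and without the library block. Il1b, which encodes the inflammatory cytokine interleukin-1 beta, was lower, at 130.3 and 224 against 950.3 and 2401 CPM (log2 change -2.98 ± 0.42).

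The gene with the largest change outside the lists was also a chemokine. Cxcl13 (chromosome 5, 95956951 to 95961068, plus strand), a chemokine known for drawing B cells, was at 1378 and 1619 CPM in Cx3cr1-positive cells. It had 0 counts in the Vim-positive cells of both libraries and was at least 94.5-fold higher (edgeR adjusted p = 0.000108). A UMI was found in 169 of 341 cells (49.6%). Ccl5, which attracts T cells, was at 1633 and 1385 against 950.3 and 1103 CPM and was not called.

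Among antigen presentation genes, all 13 MHC class I genes were tested, 0 were called by edgeR or by DESeq2, and 0 had an unadjusted p under 0.05 in edgeR. H2-K1 and B2m were at 4989 ± 164 and 4159 ± 88.9 CPM. Of 14 MHC class II genes, 8 were tested and only the processing protease Ctss was called. The class II genes were high and uneven: Cd74, the invariant chain, was at 6341 and 5079 CPM against 8879 and 4245, and H2-Ab1 at 1581 and 1233 against 3404 and 1752. Of 22 interferon response genes 16 were tested, and the only one called was Cxcl10. Over all tested genes 13.6% were called, so few calls fall to lists this short, and these counts were not tested. Ifi27l2a, an interferon-induced gene, was at 1152 ± 9.31 against 853 ± 223.

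Receptors that clear debris and complexes came next. Of 20 measured, 15 were tested, and Gas6 and Itgb5 were higher and Msr1 lower. Gas6, the bridging ligand of Axl and Mertk, was at 244 and 285 against 0 and 16.8 CPM, a ratio of 25 (counting interval 6.92 to 207). Msr1, a scavenger receptor, was at 79.0 and 59.4 against 355 and 606 CPM (log2 change -2.61 ± 0.42, edgeR adjusted p = 0.000584). Its log2 change was -2.13 and -3.30 in replicates 1 and 2 alone, and that of Itgb5, an integrin gene, 1.14 and 1.89. The Fc receptor gamma chain gene Fcer1g was at 4584 and 4299 CPM against 3078 and 3487 and was not called. Among 12 complement genes beyond the gate, C4b was higher, at 743 and 807 against 56.7 and 126, and Cfp, which encodes properdin, lower, at 39.9 and 35.4 against 199 and 194. Cfp lost the call without the mixed barcodes (adjusted p = 0.0608). Ly86, which encodes the MD-1 partner of a toll-like receptor homologue, was higher, at 2834 and 2946 CPM against 298 and 421 (log2 change 3.2 ± 0.37).

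Outside the lists, the 10 called genes with the largest rise included Cd81, a tetraspanin gene (2636 and 2704 against 170.2 and 227 CPM, log2 change 3.90 ± 0.59), Selenop, a selenium carrier gene (1066 and 1214 against 113 and 92.7), and the membrane protein genes Tmem176a and Tmem176b. Tmem176b had log2 changes of 2.81 and 4.64 in replicates 1 and 2 alone. Cp, Npl and Nav3 had 1 or 2 counts in the Vim-positive cells, with ratios of 23.7 (4.24 to 939), 16.9 (4.67 to 139.9) and 12.5 (3.44 to 103), and Nav3 lost its call with thinned cells. Lag3, known as an inhibitory receptor of T cells, was at 375 and 428 against 42.5 and 33.7 CPM (log2 change 3.61 ± 0.65, edgeR adjusted p = 0.00124). It had a UMI in 305 of 341 cells (89.4%), against 3 of 16 Vim-positive cells and 1.72% of the 1981 cells with Nras of at least 1000 CPM.

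The 10 largest falls outside the lists were led by Plk2, a stress-induced kinase gene (19.5 and 18.6 against 695 and 446 CPM, log2 change -4.68 ± 0.44, edgeR adjusted p = 6.46e-06). After Hilpda came Lilr4b, an immunoglobulin-like receptor gene with a near-identical neighbour whose reads may be shared. Next was Ifitm1, an interferon-induced membrane protein gene (175 and 189.5 against 2837 and 1954 CPM). Adam8, AA467197, Furin, Cdkn1a, Rgs1 and Tgm2 followed. AA467197, Furin and Rgs1 had log2 changes of -2.76, -2.19 and -1.90 in replicate 1 alone and of -3.55, -3.48 and -3.57 in replicate 2 alone. Cdkn1a, which encodes the cell cycle inhibitor p21, was at 129 and 98.8 against 1078 and 665 CPM. For each of these 10 genes every Vim-positive library lay above every Cx3cr1-positive one, which follows largely from choosing the largest falls.

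The spread among the Cx3cr1-positive cells was read in 328 cells with at least 4000 UMIs, each thinned to 4000. Among 1007 genes with a mean of at least 0.5 UMI in both libraries, the variance-to-mean ratio, which is 1 for pure counting noise, had a median of 1.23 in each library, and 116 genes were above 2 in both. The 10 highest were Apoe, S100a9, S100a8, Spp1, Fth1, Cxcl13, Cd74, Cxcl10, Ccl5 and Saa3. Abundant genes reach high ratios more easily, since their counting noise is small.

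The spread took different forms. Apoe was found in every thinned cell, with a median of 179 and 201 UMIs and a highest cell of 803 and 737, and the top 10% of cells held 23.6% and 24.5% of its UMIs. Cxcl13, Cxcl10, Spp1 and the acute-phase gene Saa3 were absent from most cells and high in few. Cxcl13 had 0 UMIs in 61.4% and 56.6% of cells, and the top 10% held 66.4% and 68.0% of its UMIs. For Cxcl10 that share was 87.9% and 88.9%, for Saa3 85.2% and 82.3%, and for Spp1 78.7% and 76.0%. Cd74 lay between, at 43.9% and 42.5%. The libraries gave nearly the same curves. The ratios of S100a8 and S100a9 came from 4 or fewer cells a library with a UMI after thinning and fell to 2 or less without the mixed barcodes.

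**Figure D4:**
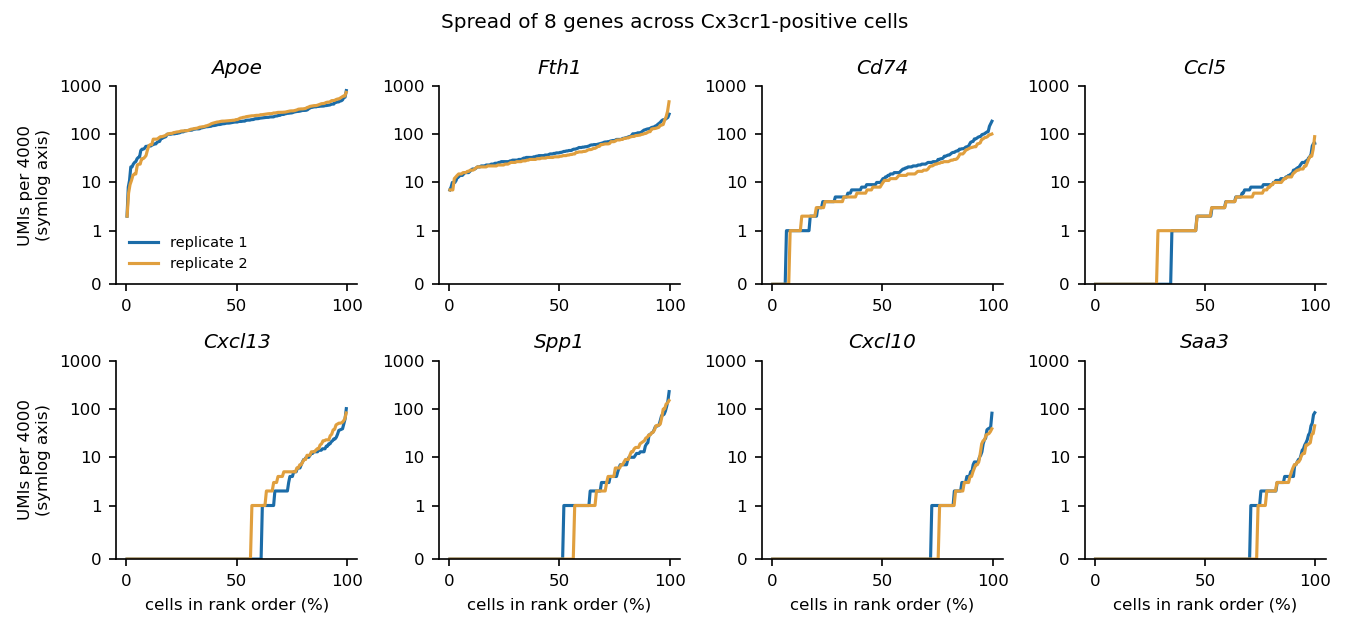
UMIs per cell after thinning to 4000, with Cx3cr1-positive cells of each library in rank order, for 8 genes on an axis linear near 0 and logarithmic above. Apoe and Fth1 rise gently across nearly all cells, Cd74 and Ccl5 more steeply, and Cxcl13, Spp1, Cxcl10 and Saa3 are at 0 in more than 50% of cells and climb in the last part.

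Summed over lists, the spread differed from list to list. After thinning, the homeostatic sum ran from 34.0 to 132 UMIs between the 10th and 90th percentile in replicate 1 and from 44.0 to 145 in replicate 2. The inflammatory chemokine and cytokine sum ran from 7 to 61 and from 7.10 to 45.0, the MHC class II sum from 36.0 to 166 and from 36.1 to 138, and the phagocyte receptor sum from 33.0 to 59.0 and from 33.0 to 60.9. Across cells, the homeostatic sum ran against the chemokine and cytokine sum (Spearman rho -0.32 in 176 cells and -0.36 in 152) and with the lysosomal sum (0.24 and 0.39), which shares 2 genes with it, Cst3 among them. The class II and class I sums ran together (0.47 and 0.32). These are descriptions over cells of 1 library thinned to 1 depth, where a gain in one list lowers the room for others, and they carry no test.

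Genes of cell division marked a minority. Of 16 cell cycle genes, at least 6 had a UMI in 41 of the 341 cells (12%; 20 and 21 cells). These 41 cells were deeper, with a median of 16131 UMIs against 10512 in the other 300, and depth adds detected genes. Thinned, 39 of 328 cells (11.9%) held at least 4 of the 16. Mki67, a proliferation marker, had a UMI in 31 cells (9.09%), and Top2a, a topoisomerase of dividing cells, in 38 (11.1%). The 41 cells had a homeostatic sum with a median of 16230 CPM against 20539 in the other cells. Stmn1, the only cell cycle gene called, had 0 counts in the Vim-positive cells and was at 164 and 111 CPM, at least 8.68-fold higher, and missed the call in DESeq2 and with thinned cells.

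Stray lymphocyte transcripts were found in most cells, largely from the genes Ighm and Cd79b. At least 1 UMI of the 44 genes of the T cell, NK and cytotoxic, and B and plasma cell lists was found in 256 of 341 cells (75.1%; 70.7% in replicate 1 and 80.3% in replicate 2), and in 161 of 328 thinned cells (49.1%). Without Ighm and Cd79b, 51 cells (15%, 95% interval 11.3 to 19.2) had one, and 27 of 328 thinned (8.23%). The same 44 genes gave a UMI in 70.0% of Nras-high cells and 66.7% of the other 839 kept cells, or 22.0% and 47.4% thinned. Without Ighm and Cd79b the thinned shares there were 21.9% and 41.0%, above that of the Cx3cr1-positive cells. Neither class measures background: 100 of the other kept cells held at least 3 T cell genes, and Nras-high cells carried Trbc1, as given below. Whether the share in the Cx3cr1-positive cells is background was not tested.

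Ighm (chromosome 12, 113418558 to 113422730, minus strand), the constant region gene of immunoglobulin M heavy chains, had 473 UMIs in 191 cells (56.0%, 95% interval 50.6 to 61.4), at 105 and 109 CPM. Cd79b (chromosome 11, 106311341 to 106314762, minus strand), which encodes a signalling chain of the B cell receptor, had 196 UMIs in 129 cells (37.8%), at 43.6 and 45.3 CPM. Both libraries gave nearly the same levels. The genes were spread thinly over many cells: no cell held more than 3.59% of the Ighm UMIs, and 78 cells had both genes. The other genes that define B cells were near 0. Cd79a had 1 UMI in 1 cell, Ms4a1 had 0, and Igkc, a light chain gene, had 7 UMIs in 2 cells.

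The shares of Ighm and Cd79b in other classes are given beside these, and free RNA in droplets was not measured. In the Nras-high cells, Ighm had a UMI in 0.353% of 1981 cells and Cd79b in 0.303%, although their median depth was 44650 UMIs against 11028. Thinned to 4000 UMIs, the shares were 33.2% in Cx3cr1-positive cells against 0.103% in Nras-high cells for Ighm, and 16.2% against 0.0513% for Cd79b. In the other kept cells, they were 13.3% and 5.42%. The shares in Cx3cr1-positive cells were above those of both classes. The part of free RNA in any of these shares was not tested. In the Vim-positive cells each gene had 1 UMI, in 1 of 16 cells, and neither was abundant enough to be tested. The pooled ratio of Ighm was 20.3, with a counting interval of 3.63 to 804.

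T cell transcripts had the opposite distribution, with many UMIs in few cells. Of 20 T cell genes, at least 1 UMI was found in 36 of 341 cells (10.6%), or 5.79% thinned, against 61.4% of Nras-high cells, or 18.3% thinned. The Nras-high share does not measure background, since Trbc1 alone was at 51.0 CPM there, of 69.7 CPM for the whole list. Whether the share in the Cx3cr1-positive cells is background was not tested. The 11 cells with at least 3 of these genes held 93.5% of the 601 UMIs. Cd3d, a chain of the T cell receptor complex, had 64 UMIs in 10 cells, 25 of them in 1 cell. Cd3g had 69 in 8 cells and Trbc2 66 in 8. The 11 cells had a median of 17074 UMIs against 11028 in all, up to 18 of the 20 T cell genes, and homeostatic sums from 1924 to 32105 CPM, and scrublet marked 2 of them as doublets. Il7r, found in 18 cells, and Icos, in 11, were the T cell genes in the most cells. Cd2, Skap1, Cd3e, Trbc1 and Trac were each in 7 to 10 cells, as were Nkg7 and Klrk1 of the NK list. Trbc1 cannot be read against the Nras-high cells, which were themselves at 51.0 ± 2.62 CPM.

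**Figure D5:**
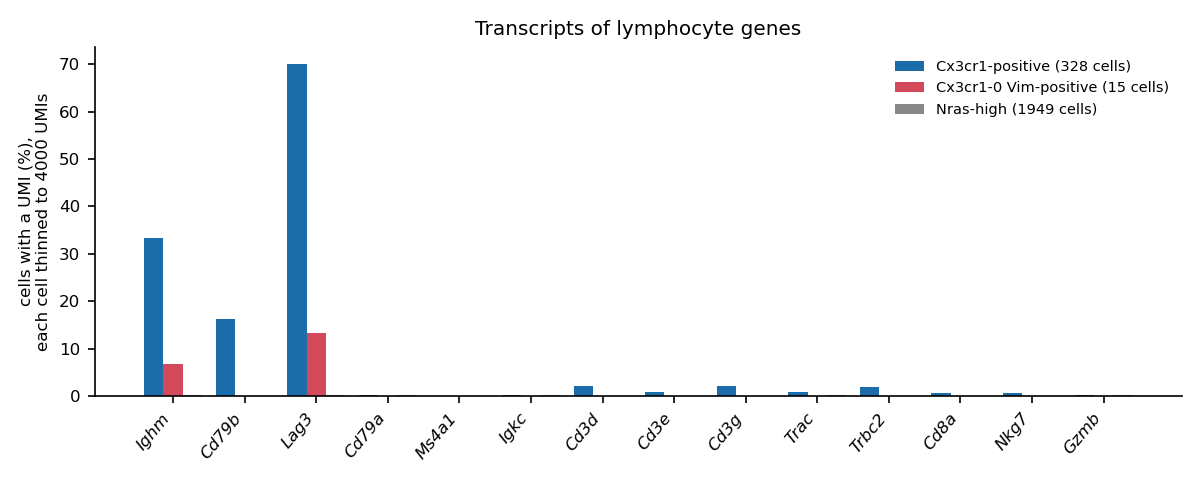
Share of cells with a UMI of lymphocyte genes after thinning each cell to 4000 UMIs, in Cx3cr1-positive, Vim-positive and Nras-high cells. Ighm (33.2%), Cd79b (16.2%) and Lag3 (70.1%) stand out in the Cx3cr1-positive cells, while the remaining B cell, T cell and cytotoxic genes shown are in 2.13% of them or fewer.

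Cytotoxic genes were rarer. Gzmb, which encodes granzyme B, had 61 UMIs in 3 cells, 55 of them in 1 cell. Some other lists were also concentrated in few cells. The neutrophil genes S100a8 and S100a9 were in 12 and 10 cells, and 6 cells with at least 3 neutrophil genes held 97.8% of the UMIs of that list. Mast cell and basophil genes were alike, with 94.8% of their UMIs in the 6 cells that held at least 3 of them. Hbb-bs, a haemoglobin gene with near-identical copies, had 910 UMIs in 61 cells, 674 in 1 cell. The 10 endothelial and mural genes were less concentrated, with 41.1% of their UMIs in cells that held at least 3 of them. In all, 23 cells (12 and 11), or 6.74%, were mixed barcodes, with at least 3 genes of the T cell, NK, neutrophil, mast cell and basophil, erythroid, endothelial and mural, or glioma list. Of the Vim-positive cells 5 of 16 were mixed. Mixed barcodes in the Cx3cr1-positive class had a median of 17074 UMIs, and without them the share with a lymphocyte UMI was 73.9%.

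Tumour and neural transcripts were scarce, with exceptions. Sox2, a glioma stem cell marker, had 0 UMIs against 17.6 CPM in Nras-high cells, and the filament gene Nes was at 2.95 against 110 CPM. Slc1a3, the glutamate transporter of astrocytes, was at 131 and 131 CPM, against 0 and 25.3 in Vim-positive cells and 0.885 in Nras-high cells, with a UMI in 231 of 341 cells (67.7%). It was called higher (edgeR adjusted p = 0.0168), on 3 UMIs in the Vim-positive cells and a ratio of 8.24 (2.81 to 40.1), but not in DESeq2 or with thinned cells. Gfap and Aldh1l1, other astrocyte genes, were at 4.54 and 9.30 CPM. Mag, a myelin gene, had a UMI in 88 cells (25.8%).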

How the data were processed

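Droplet RNA-seq was deposited as UMI counts per gene and barcode for 2 libraries of 1 group, 63001350 and 58915133 UMIs in all. Per the labels' protocols, the authors aligned reads with STAR in Cell Ranger to mm10 and combined runs normalized to the same depth; the deposited matrices hold whole counts. Cell Ranger 3.1 is named in the submitters' processing notes. Classes were set from these raw counts as stated in the report. The members and gene lists were chosen with earlier results of these data known.

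Counts were summed per library and class over 3 classes (Cx3cr1-positive, Vim-positive and the other 9 cells of the C1q gate) and tested with edgeR 4.0.16 in R 4.3.3 (limma 3.58.1 loaded): TMM factors, filterByExpr, quasi-likelihood fit, library as a block because the classes share libraries. Deviations of classes in the same library correlated at 0.02, -0.08 and -0.00 over 1802 genes. Gate genes (Cx3cr1, C1qa, C1qb, C1qc, Vim, Nras, Malat1 and mitochondrial genes) were left out of the test. Calls needed an adjusted p under 0.05 and a log2 change of at least 1. On simulated data, 95% of 4-fold and 100% of 8-fold changes were recovered (100 genes each), with 11 of 2003 unchanged genes called. The simulation gave all classes the same mean profile and a fixed dispersion, and changed abundant genes only. Unevenness among the 8 Vim-positive cells of a library was not simulated, so these cannot be taken as rates for the real data.

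Cells were thinned without replacement to 4000 UMIs, which left out 13 Cx3cr1-positive cells, 1 Vim-positive cell and 32 Nras-high cells. Scrublet in scanpy 1.11.5 (expected rate 0.04) marked 14 of the kept cells, 2 of them Cx3cr1-positive, and none was removed. Share intervals are exact binomial at 95%. They and the limits set by 3 counts cover counting error only. Named genes are the gate genes and markers, the 15 most abundant genes, called members of 30 lists (420 of 421 genes measured) with the largest change and members with the highest CPM, Csf3 and Csf3r, the 10 largest rises and falls outside them with at least 20 counts per library in the higher class, the 10 genes with the highest variance-to-mean ratio, and lymphocyte genes in at least 2% of cells. Other genes were named after their values were seen. Coordinates are from the GENCODE annotation of GRCm38. DESeq2 1.42.0 and other gates, filters and factors were alternatives. Results on some genes that the rule names are not reported here.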

Additional observations from a re-analysis of the deposited data

How the results depend on the processing

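Counts of called genes differed between alternatives, and the cause was not tested, since those with the most calls also changed the classes or cells in the fit. The main setting called 245 of 1802 tested genes (13.6%, 115 higher and 130 lower). The compared classes only gave 566 of 8202 (6.90%, 306 and 260), and 5 classes in the fit 545 of 11114 (4.90%, 309 and 236). No Vim condition gave 560 of 8223 (6.81%, 280 and 280), and cells of 5000 to 20000 UMIs 555 of 7281 (7.62%, 312 and 243). The cells thinned to 4000 UMIs gave 183 of 5113 (3.58%), with 100 higher and 83 lower. No low-count filter gave 294 of 14307 (2.05%, 173 and 121) and DESeq2 294 of 1802 (16.3%, 114 and 180). Without the replicate block, which pairs classes of one library, 366 of 1802 (20.3%) were called (177 and 189). Each alternative that tested more than 1802 genes called a smaller share of them than the main setting. Of 85 named genes, 54 kept their call under every alternative that tested them, 11 lost it without the mixed barcodes, an alternative chosen after seeing the data, and 13 with thinned cells. In 1 library alone, 43 had a log2 ratio that differed by over 1.5 times from the edgeR estimate. The ratios of 1 library are differences of log2 CPM with a small prior count, without a fit or TMM factors, and give no calls. The change of method enters this count: Tmem119 was at 7.52 in each library alone against 11.5 in edgeR. The share of cells with a lymphocyte UMI was 49.1% thinned, 15% without Ighm and Cd79b (also added later), and from 70.7% to 80.3% leaving out a library. The number of Cx3cr1-positive cells ranged from 318 to 345. The 16 Vim-positive cells, with 189229 UMIs, limit every comparison.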
